A study of Phaseolus vulgaris and Phaseolus lunatus with 12 samples.

Results

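Terpene synthases are the enzymes that turn prenyl diphosphates into the carbon skeletons of terpenes, and 9 genes annotated as such in lima bean (Phaseolus lunatus) leaves are described here. The genes were chosen by 2 criteria, a product name that contains terpene synthase, farnesene synthase, ocimene synthase, linalool synthase, nerolidol synthase or germacrene, and a sum of at least 1000 counts over the 6 lima bean libraries. Of 43997 genes in the deposited table, 22 carried such a name, and 9 of them reached the sum. An alpha-farnesene synthase, Pl11G0000015600.v1, and a probable terpene synthase 11, Pl05G0000218800.v1, were listed beforehand with their difference between the groups known, so their values are a description with no test.

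RNA sequencing measured total RNA from the first true leaf of lima bean, variety Peladilla, grown for 3 weeks. Control leaves were detached and carried no mites. Infested leaves were detached and carried 50 adult female spider mites (Tetranychus urticae, London strain) on each leaflet, and both were frozen at 24 h. Detachment was thus common to both groups. Each group held 3 libraries, and the labels do not state whether each came from a separate plant, so p-values measure only the spread between libraries, which may be technical. The mites had been reared on common bean.

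Monoterpenes are made from geranyl diphosphate, mostly in plastids, and sesquiterpenes from farnesyl diphosphate, mostly in the cytosol. Lima bean is a textbook case of indirect defence: leaves fed on by spider mites release a blend of volatile terpenes, among them ocimene, farnesene and the homoterpenes that derive from nerolidol and geranyllinalool, and predatory mites follow the blend to their prey. The product names are best matches to proteins of other plants and do not establish which terpene a lima bean enzyme makes. The nerolidol synthase name comes from a strawberry enzyme, the germacrene D synthase name from a grapevine enzyme, and the names alpha-farnesene synthase, terpene synthase 2 and terpene synthase 11 from castor bean.

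Total counts ran from 13317991 to 17255676 per library. Of 23 leaf genes (chlorophyll a-b binding proteins and the Rubisco small subunit), 13 were called lower, and their summed level was 41267 to 55021 CPM in control and 15757 to 33486 CPM in infested leaves, where CPM is the count scaled to a common library size. Markers of other tissues were low, with 5 of 7 seed storage genes and 6 of 8 root nodule genes at 0 counts; nearly all counts of the latter list belong to a leghemoglobin reductase. The 6 trichome-regulator genes summed to 61.4 to 63.1 CPM in control and 141 to 146 CPM in infested leaves. Among them, 2 genes named GLABRA 2, an epidermal homeodomain factor, were called higher and the rest were not called. Most of the difference in the sum came from 1 of the 2, Pl10G0000340900.v1, at 12.6 ± 1.11 CPM in control and 69.9 ± 3.74 CPM in infested leaves. At an unadjusted p below 0.05 in edgeR, 5 of the 6 trichome-regulator genes were higher and 0 lower. Over all 18523 genes tested, 6015 lay below it in either direction, and 9.65% were called higher. Sieve element genes of the phloem summed to 57.0 to 74.8 CPM in control and 41.8 to 55.7 CPM in infested leaves, with 0 of 10 tested called by edgeR, 0 by DESeq2 and 3 lower at an unadjusted p below 0.05. The part of any of these cell types in the results that follow was not tested. In leaf tissue taken whole, more cells of a type and more RNA per cell cannot be told apart.

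The 9 synthases together went from 454 ± 55.6 CPM in control leaves to 4556 ± 394 CPM in infested leaves (SD, n = 3), a 10.03-fold difference of the means. In single libraries the sum was 396, 460 and 507 CPM in control and 4111, 4697 and 4860 CPM in infested leaves. The genes took 0.0402% to 0.0502% of all counts in control libraries and 0.398% to 0.480% in infested libraries. Every one of the 9 had its 3 infested libraries above its 3 control libraries. Over all 18523 genes tested, 19.7% were apart in this direction. The fold of the sum and the separation of the 9 are a description, with no test against that share. Only 4 of the 9 reached the summed-count criterion on their control libraries alone, so the others entered with the help of their infested libraries. The genes listed beforehand were chosen with their difference known.

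**Figure D1:**
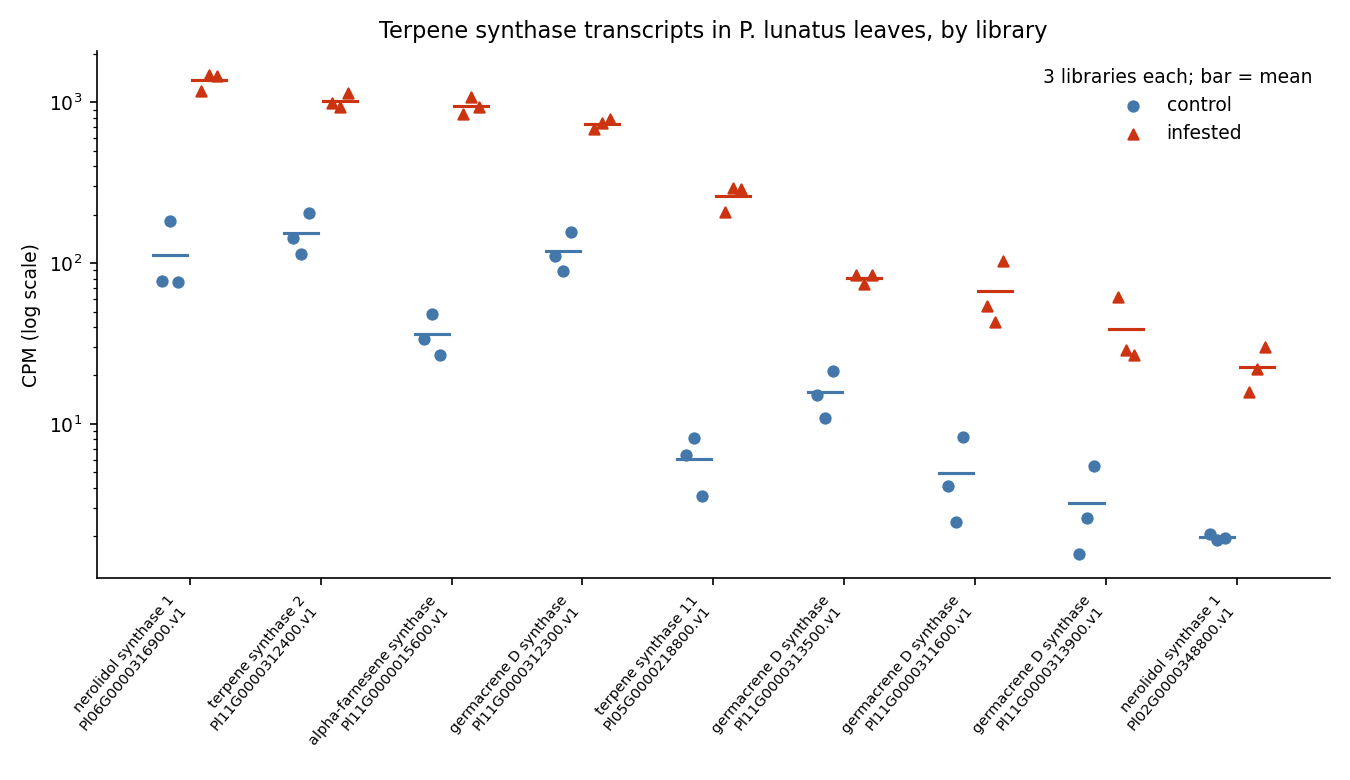
Level of each of the 9 terpene synthase genes in CPM on a log axis, with circles for the 3 control libraries, triangles for the 3 infested libraries and bars for the means. No gene has overlapping groups, and the infested means run from 22.5 to 1371 CPM.

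The most abundant of the 9 in infested leaves in CPM was a nerolidol synthase, Pl06G0000316900.v1 (chromosome 6, 34751411 to 34765542, minus strand). Nerolidol is the sesquiterpene alcohol from which plants make the homoterpene DMNT. The gene stood at 77.6, 182 and 76.6 CPM in control libraries 1, 2 and 3 and at 1173, 1486 and 1453 CPM in infested libraries 1, 2 and 3. Control library 2 stood above the other control libraries, yet far below any infested library. The gene rose by a log2 fold change of 3.61 ± 0.36 (standard error, n = 3 against 3; Benjamini-Hochberg adjusted p = 0.000572, quasi-likelihood test of edgeR). With a sum of 5017 control counts, it reached the criterion of 1000 without its infested libraries.

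Its deposited length of 4677 bases was the longest of the 9, the others running from 618 to 2645 bases. A second member with the nerolidol synthase name, Pl02G0000348800.v1 (chromosome 2, 41132976 to 41143551, plus strand), had the lowest level of the 9. It stood at 2.06, 1.89 and 1.95 CPM in control and 15.8, 21.8 and 30.0 CPM in infested libraries, a log2 fold change of 3.51 ± 0.26. The control libraries were almost level, while the infested libraries spread more widely, with library 3 the highest. Its sum of 1027 counts lay just inside the criterion. The third gene of this name, Pl02G0000348900.v1, starts 6146 bases downstream on the same strand and lay just outside with 686 counts, at 2.79 ± 0.598 CPM in control and 13.3 ± 4.803 CPM in infested leaves.

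Alpha-farnesene synthase, Pl11G0000015600.v1 (chromosome 11, 1054231 to 1058027, minus strand), is named for an enzyme that makes an acyclic sesquiterpene from farnesyl diphosphate. It stood at 33.6, 48.1 and 26.9 CPM in control and at 846, 1079 and 940 CPM in infested libraries. The lowest infested library was 17.6-fold above the highest control library. The log2 fold change was 4.72 ± 0.24, the 35th largest of the 18523 genes tested.

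Probable terpene synthase 11, Pl05G0000218800.v1 (chromosome 5, 30903470 to 30909016, minus strand), stood at 6.39, 8.13 and 3.55 CPM in control and at 208, 293 and 288 CPM in infested libraries. It had the largest fold of the 9, with a log2 fold change of 5.44 ± 0.30 (rank 22 of the genes tested). Of its 11248 counts, 97.5% came from infested libraries, so it entered the selection through them. A pair of genes on the same strand of chromosome 5 share its name, Pl05G0000219100.v1 and Pl05G0000219500.v1, and both had 0 counts in all 6 libraries.

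The remaining 5 members lie in one stretch of chromosome 11 and all point to the plus strand. Germacrene D, the product for which 4 of them are named, is a cyclic sesquiterpene common in leaf volatiles. The lead pair sits side by side. Pl11G0000312300.v1, named germacrene D synthase (38163555 to 38165644), stood at 111, 89.3 and 157 CPM in control and 683, 741 and 788 CPM in infested libraries. Pl11G0000312400.v1, named probable terpene synthase 2 (38167012 to 38168295), stood at 144, 115 and 205 CPM in control and 985, 931 and 1146 CPM in infested libraries. Groups were well apart for both, and both already held over 1000 counts in control leaves alone. They rose by log2 fold changes of 2.63 ± 0.21 (adjusted p = 0.00022) and 2.72 ± 0.22 (adjusted p = 0.000257) by the same test.

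These neighbours tracked each other closely. The ratio of their counts, Pl11G0000312400.v1 over Pl11G0000312300.v1, stayed between 1.26 and 1.45 in the 6 libraries. Only 1367 bases separate them, their deposited lengths of 618 and 990 bases are the shortest of the 9, and Pl11G0000312400.v1 carries the metal binding domain without the N-terminal domain that the other 8 members have. Whether they form 1 transcription unit was not tested.

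Germacrene D synthase Pl11G0000313500.v1 (38319139 to 38324151) stood at 15.1, 10.9 and 21.4 CPM in control and 84.5, 74.5 and 84.8 CPM in infested libraries. Its log2 fold change of 2.37 ± 0.22 was the smallest of the 9. Pl11G0000311600.v1 (38084800 to 38088911), of the same name, stood at 4.11, 2.45 and 8.25 CPM in control and 54.1, 42.7 and 104 CPM in infested libraries. Infested library 3 was the highest for this gene, and the log2 fold change was 3.77 ± 0.47. Pl11G0000313900.v1 (38389008 to 38395797), the last of the name, stood at 1.54, 2.59 and 5.50 CPM in control and 61.2, 28.7 and 26.9 CPM in infested libraries, with infested library 1 the highest. Its log2 fold change was 3.62 ± 0.48. These 2 genes varied most among the infested libraries, with coefficients of variation of 48.5% and 49.6%, against 7.15% to 31.5% for the other 7.

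The control libraries ranked differently from member to member. Control library 3 held the highest control value of all 5 genes of the chromosome 11 stretch. For alpha-farnesene synthase, terpene synthase 11 and the nerolidol synthase of chromosome 6, control library 2 held the highest value and control library 3 the lowest. These are 3 libraries, and the difference between them was not tested.

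All 9 members were called higher and 0 lower, where 9.65% of all genes tested were called higher and 7.46% lower at an adjusted p below 0.05 in edgeR. The count of members called higher is a description, since 5 of the 9 reached the sum of 1000 only with their infested libraries and 2 were listed for their rise. At an unadjusted p below 0.05, 0 members were lower, and DESeq2 called 9 higher and 0 lower. Among all genes, 3170 were called in both directions together, with 2066 left without control library 3, 1485 without infested library 2 and 1317 without infested library 3. The median log2 fold change over all genes tested was −0.01.

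**Figure D2:**
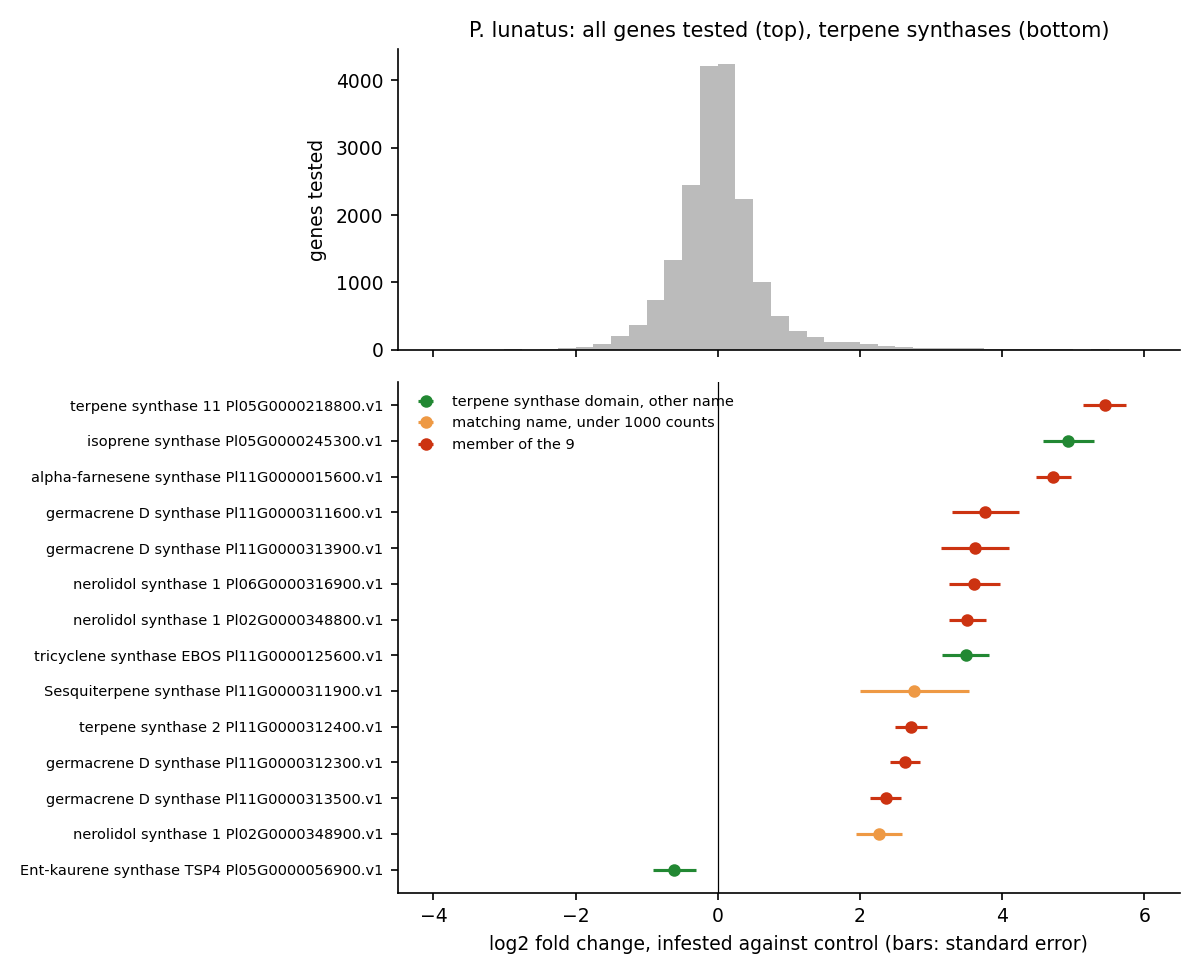
Top, the number of genes tested by log2 fold change of infested against control, all 18523 genes. Bottom, log2 fold change with its standard error (n = 3 against 3) for every tested gene with a terpene synthase name or domain; the 9 members lie between 2.37 and 5.44.

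Levels of different genes were compared per kilobase of deposited length. In control leaves the order was terpene synthase 2 (250 ± 74.97 CPM per kb), germacrene D synthase Pl11G0000312300.v1 (120 ± 34.9), nerolidol synthase of chromosome 6 (24.0 ± 12.9), alpha-farnesene synthase (18.1 ± 5.45) and Pl11G0000313500.v1 (9.36 ± 3.13). Below them came terpene synthase 11 (3.13 ± 1.20), Pl11G0000311600.v1 (2.61 ± 1.58), Pl11G0000313900.v1 (1.72 ± 1.10) and the nerolidol synthase of chromosome 2 (0.744 ± 0.0313). Neighbours in this order had overlapping ranges at 3 places: nerolidol synthase with alpha-farnesene synthase, terpene synthase 11 with Pl11G0000311600.v1, and the latter with Pl11G0000313900.v1.

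In infested leaves the leading pair stayed first and second per kilobase, at 1651 ± 181 and 745 ± 53.3 CPM per kb. Alpha-farnesene synthase (478 ± 58.6) now stood above the nerolidol synthase of chromosome 6 (293 ± 36.7), with ranges apart, and terpene synthase 11 (137 ± 24.7) above Pl11G0000313500.v1 (48.2 ± 3.47). Ranges overlapped only between Pl11G0000313500.v1, Pl11G0000311600.v1 and Pl11G0000313900.v1, each with its neighbour in the order.

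As shares of the summed CPM per kb, the make-up of the 9 differed between the groups. Alpha-farnesene synthase held 4.52% ± 2.19 in control and 14.0% ± 1.82 in infested libraries, and terpene synthase 11 held 0.792% ± 0.431 and 3.99% ± 0.570. The lead pair held 57.6% ± 4.49 and 27.7% ± 1.90 in control against 48.3% ± 2.96 and 21.8% ± 0.455 in infested libraries. These shares follow from the folds above and were not tested, and they count the lead pair as 2 genes.

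**Figure D3:**
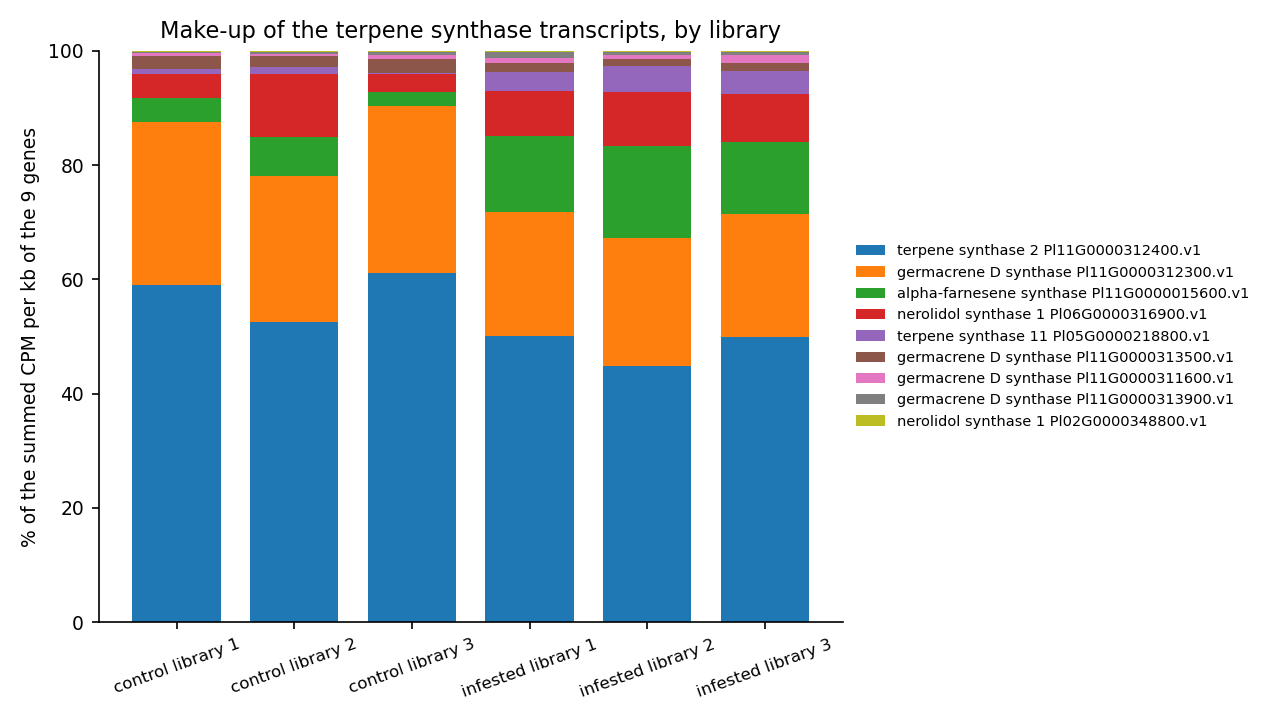
Share of each gene in the summed CPM per kb of the 9 terpene synthases, 1 stacked bar per library. Counted as a gene apart from its neighbour Pl11G0000312300.v1, terpene synthase 2 holds the largest share in every library. Alpha-farnesene synthase is wider in the 3 infested libraries (14.0% on average) than in the 3 control libraries (4.52%).

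The chromosome 11 stretch spans 311 kb from the start of Pl11G0000311600.v1 to the end of Pl11G0000313900.v1 and holds 24 annotated genes. A terpene synthase name or domain marks 7 of them, the 5 members, the sesquiterpene synthase Pl11G0000311900.v1 and the germacrene D synthase Pl11G0000311700.v1. The sesquiterpene synthase had 474 counts, below the criterion. It stood at 1.51 ± 1.89 CPM in control and 10.1 ± 4.997 CPM in infested leaves (log2 fold change 2.77 ± 0.77, adjusted p = 0.0427 in edgeR). That call ended under DESeq2 (adjusted p = 0.0579) and with any library but control library 3 left out (adjusted p of up to 0.167, without infested library 3). Pl11G0000311700.v1 had 49 counts, 44 of them in infested libraries, and was too low to test.

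The other 17 genes of the stretch have no terpene synthase name or domain, and 13 of them had 0 counts. Of these 17, 2 were tested, at log2 fold changes of 0.57 ± 0.46 and −0.57 ± 0.36. Of the 2, 0 were called by edgeR, 0 by DESeq2 and 0 at an unadjusted p below 0.05. Both were low: Pl11G0000312700.v1 stood at 0.816 CPM in control and 1.21 CPM in infested leaves, and Pl11G0000313000.v1 at 2.81 and 1.90 CPM. Whether expressed neighbours without a terpene synthase name respond can thus not be judged here. The reads of near-identical copies in such a stretch could be split or shared by the counting, whose settings the sources used here do not give, and reads from a gene and an antisense partner may not be told apart, so the values of its single genes are uncertain.

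**Figure D4:**
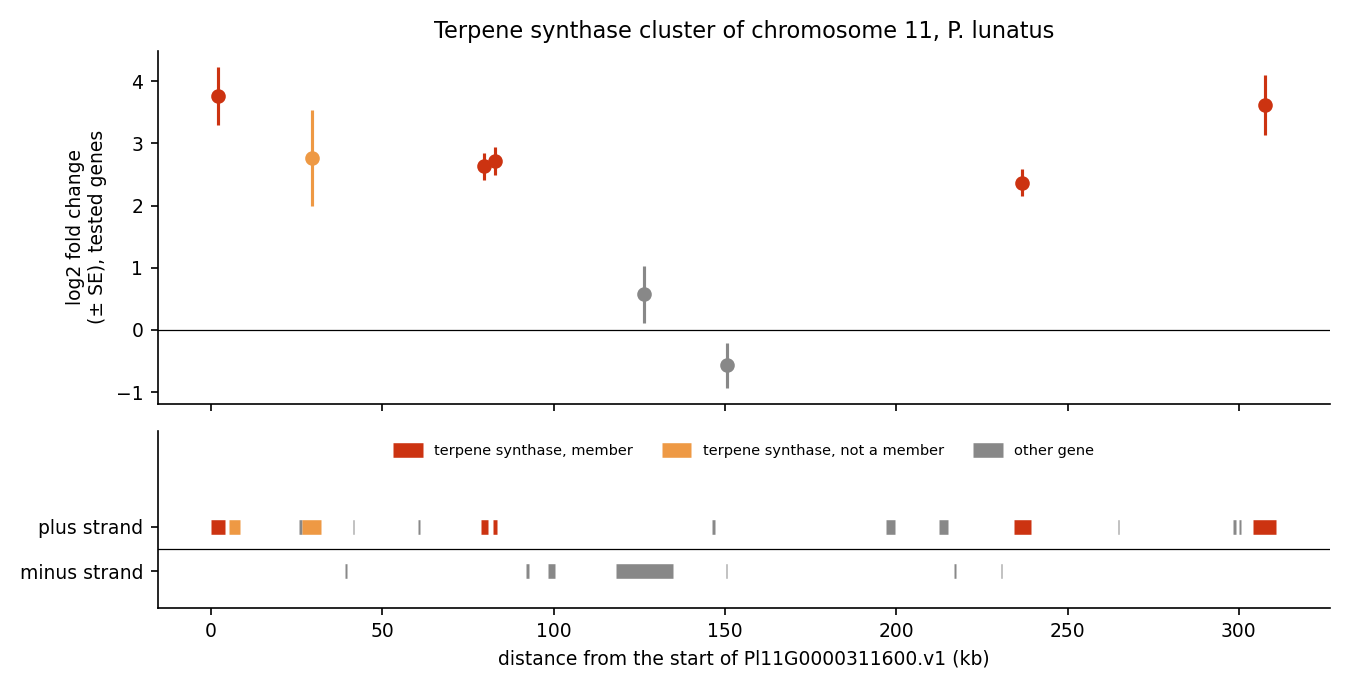
Top, log2 fold change with standard error of the tested genes of the chromosome 11 stretch, by distance in kb from the start of Pl11G0000311600.v1. Bottom, all 24 annotated genes by strand. The tested terpene synthases lie between 2.37 and 3.77, and both other tested genes, which had few counts, lie at 0.57 and −0.57.

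Outside the name criterion, 8 more genes carry a terpene synthase domain. The most abundant was a tricyclene synthase, EBOS (Pl11G0000125600.v1, chromosome 11, 11431649 to 11436732), named for a Lotus japonicus enzyme that makes ocimene. It stood at 204, 113 and 272 CPM in control and 2602, 1731 and 2280 CPM in infested libraries, above any of the 9 members in CPM in infested leaves. It rose by 3.49 ± 0.33 on the log2 scale (adjusted p = 0.000465, edgeR). Per kilobase, its 910 CPM in infested leaves lay between those of the chromosome 11 lead pair, terpene synthase 2 and germacrene D synthase Pl11G0000312300.v1.

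An isoprene synthase (Pl05G0000245300.v1, chromosome 5, 33831356 to 33834358), of the enzymes that release the hemiterpene isoprene in kudzu, stood at 6.39, 10.2 and 3.55 CPM in control and 242, 155 and 222 CPM in infested libraries. It rose by 4.93 ± 0.36 (adjusted p = 0.000165, edgeR). Ent-kaurene synthase (Pl05G0000056900.v1), which serves gibberellin synthesis, stood at 2.76 ± 0.420 and 1.81 ± 0.391 CPM and was not called (log2 fold change −0.61 ± 0.30, adjusted p = 0.204). Of 14 tested genes with a terpene synthase domain, members included, it was the one not called higher, where 9.65% of all genes tested were. The count is a description, since the 14 include the 9 members, chosen on sums that hold the infested libraries. The 14 also take in the sesquiterpene synthase Pl11G0000311900.v1, whose call ended under DESeq2.

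Copies with few or no reads made up the rest of the matching names. Chromosome 5 between 26381518 and 26796718 holds 7 of them, named sesquiterpene synthase, terpene synthase 2, germacrene D synthase and germacrene B synthase, with 0 to 41 counts over the 6 libraries. Most of these few counts lay in control libraries: 39 against 2 in infested libraries for Pl05G0000180200.v1, and 21 against 4 for Pl05G0000180700.v1. Control library 2 held 27 and 14 of them. Pl05G0000180300.v1 had 5 against 0, Pl05G0000179600.v1 2 against 0 and Pl05G0000179000.v1 3 against 5. All were too low to test. Of the 22 matching names, 5 had 0 counts in every library, 1 of them a germacrene A acid hydroxylase, which is a cytochrome P450 and not a synthase.

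The genes nearest to the listed pair in pattern were found by the root mean square distance of centred log2 CPM over the 6 libraries, which share 1 comparison. For alpha-farnesene synthase the nearest was the large subunit 1 of a heterodimeric geranylgeranyl pyrophosphate synthase (Pl08G0000413100.v1, distance 0.24). Next came a 13S-lipoxygenase of jasmonate synthesis (Pl06G0000306200.v1, 0.29), a benzyl alcohol O-benzoyltransferase (Pl06G0000214000.v1, 0.32), a further geranylgeranyl pyrophosphate synthase (Pl02G0000096500.v1, 0.33) and an F-box protein PP2-B10 (Pl01G0000014000.v1, 0.38).

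For terpene synthase 11 the nearest were the acyltransferase RAM2 (Pl07G0000353400.v1, 0.29), the amino acid transporter AVT1I (Pl08G0000044400.v1, 0.32) and alpha-farnesene synthase itself (0.40). A jasmonate-induced oxygenase 1 (Pl10G0000113900.v1, 0.40) and a carboxylesterase 12 (Pl11G0000379500.v1, 0.41) followed.

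Precursors reach the synthases by the plastid methylerythritol phosphate (MEP) route and the cytosolic mevalonate route. Among 12 tested MEP genes, 6 rose (50%) and 2 fell (16.7%), and the median of the 12 log2 fold changes was 0.42. For this list and those below, the shares over all 18523 genes tested were 9.65% called higher and 7.46% lower. The first enzyme, 1-deoxy-D-xylulose-5-phosphate synthase, moved both ways by copy. Pl03G0000380500.v1 rose from 5.89 ± 4.74 to 275 ± 101 CPM (adjusted p = 0.000533), Pl06G0000278300.v1 from 13.3 ± 6.07 to 81.4 ± 14.7 CPM (adjusted p = 0.00101) and Pl03G0000221900.v1 from 0.838 ± 0.619 to 11.6 ± 3.86 CPM (adjusted p = 0.00229), all in edgeR. Both MEP genes that fell are further copies of this enzyme, and both calls ended without control library 2 or 3 or infested library 2 or 3, and 1 of them without control library 1.

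In the mevalonate list, 8 of 16 tested genes rose (50%) and 2 fell (12.5%), with a median of 0.68. Hydroxymethylglutaryl-CoA synthase Pl02G0000034700.v1 rose from 36.6 ± 2.41 to 343 ± 91.1 CPM (adjusted p = 9.02e-05, edgeR). The reductase that commits carbon to the route, Pl03G0000360900.v1, rose from 44.4 ± 12.6 to 528 ± 117 CPM (adjusted p = 0.000141). Diphosphomevalonate decarboxylase 2 (Pl07G0000022100.v1), the last step to isopentenyl diphosphate, rose from 39.4 ± 1.40 to 322 ± 88.9 CPM (adjusted p = 0.00011). The list's wording also takes in mitochondrial hydroxymethylglutaryl-CoA lyases, of leucine breakdown. Those tested were Pl06G0000035900.v1, Pl08G0000337200.v1 and Pl01G0000255900.v1, at log2 fold changes of −0.55, −0.22 and 0.06. The first of these is 1 of the 2 that fell. Of the 2 falls, 1 was left without control library 1 or 2 or infested library 1, and 0 without infested library 2 or 3.

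Of 7 tested prenyl diphosphate genes, 4 rose (57.1%) and 0 fell, with a median of 1.19. At an unadjusted p below 0.05 the counts were 4 and 0, and DESeq2 called 5 higher and 0 lower. Farnesyl pyrophosphate synthase 1 (Pl06G0000254800.v1), which makes the substrate of sesquiterpene synthases, rose from 75.3 ± 12.4 to 345 ± 55.9 CPM (adjusted p = 0.000187, edgeR). The geranylgeranyl pyrophosphate synthases Pl08G0000413100.v1 and Pl02G0000096500.v1 rose from 17.9 ± 2.15 to 439 ± 16.5 CPM and from 0.860 ± 0.538 to 19.8 ± 4.31 CPM (adjusted p = 6.27e-06 and 0.000237).

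Downstream of nerolidol and geranyllinalool, P450 enzymes cut the chain to homoterpenes. Of 10 tested genes of the P450 82 and 92 group, 1 rose and 1 fell, with a median of −0.40. These are 10% each way, near the 9.65% higher and 7.46% lower over all genes tested. Apart from the gene that rose, all are named P450 82A1, 82A3 or 82A4, names that do not establish homoterpene synthesis. The gene that rose, Pl10G0000321500.v1, is named for a maize enzyme that makes the homoterpene TMTT and went from 51.4 ± 15.7 to 93.3 ± 7.14 CPM (log2 fold change 0.86 ± 0.20, adjusted p = 0.0217 in edgeR). Its call ended without control library 3 (adjusted p = 0.0722), infested library 2 (0.0813) or infested library 3 (0.0698). P450 82A3 (Pl09G0000037700.v1) fell from 132 ± 8.79 to 88.1 ± 10.2 CPM (adjusted p = 0.0132). Without infested library 3 its adjusted p was 0.0569, above the threshold of 0.05.

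Other pathways draw on the same precursors. Of 26 tested triterpene and sterol genes, 7 rose (26.9%) and 1 fell (3.85%), with a median of 0.24. The falls numbered 2 without infested library 1 or 2, 2 under library totals and 3 under DESeq2. Squalene monooxygenase Pl02G0000346200.v1 rose from 134 ± 18.2 to 381 ± 59.7 CPM (adjusted p = 0.000724) and the beta-amyrin synthase Pl10G0000357300.v1 from 673 ± 73.1 to 1441 ± 144 CPM (adjusted p = 0.00247), while squalene monooxygenase Pl06G0000319100.v1 fell from 60.9 ± 9.13 to 34.7 ± 2.61 CPM (adjusted p = 0.00537, edgeR). Of 16 tested carotenoid genes, 8 fell (50%) and 0 rose, with a median of −0.53. At an unadjusted p below 0.05 the counts were 11 and 0, under DESeq2 9 and 0. The carotenoid falls numbered 5 without control library 3 and 3 without infested library 2 or 3.

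A carotenoid cleavage dioxygenase 4 (Pl02G0000066600.v1) fell from 1116 ± 123 to 425 ± 97.5 CPM (adjusted p = 0.00274, edgeR). The list's wording thus takes in enzymes that cleave carotenoids beside those that make them. Pl11G0000397100.v1, a further cleavage dioxygenase, is also among the falls (log2 fold change −0.53). The epoxycarotenoid dioxygenase NCED1 (Pl05G0000060900.v1, 0.71) was not called. A phytoene synthase, at the entry of the carotenoid route (Pl08G0000330400.v1), was at 65.0 ± 6.27 CPM in control and fell to 28.5 ± 9.70 CPM (adjusted p = 0.00839), and a prolycopene isomerase (Pl03G0000092400.v1) from 33.2 ± 5.51 to 17.6 ± 2.99 CPM (adjusted p = 0.00911). The carotenoid falls moved beside the leaf markers given above, whose part was not tested.

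**Figure D5:**
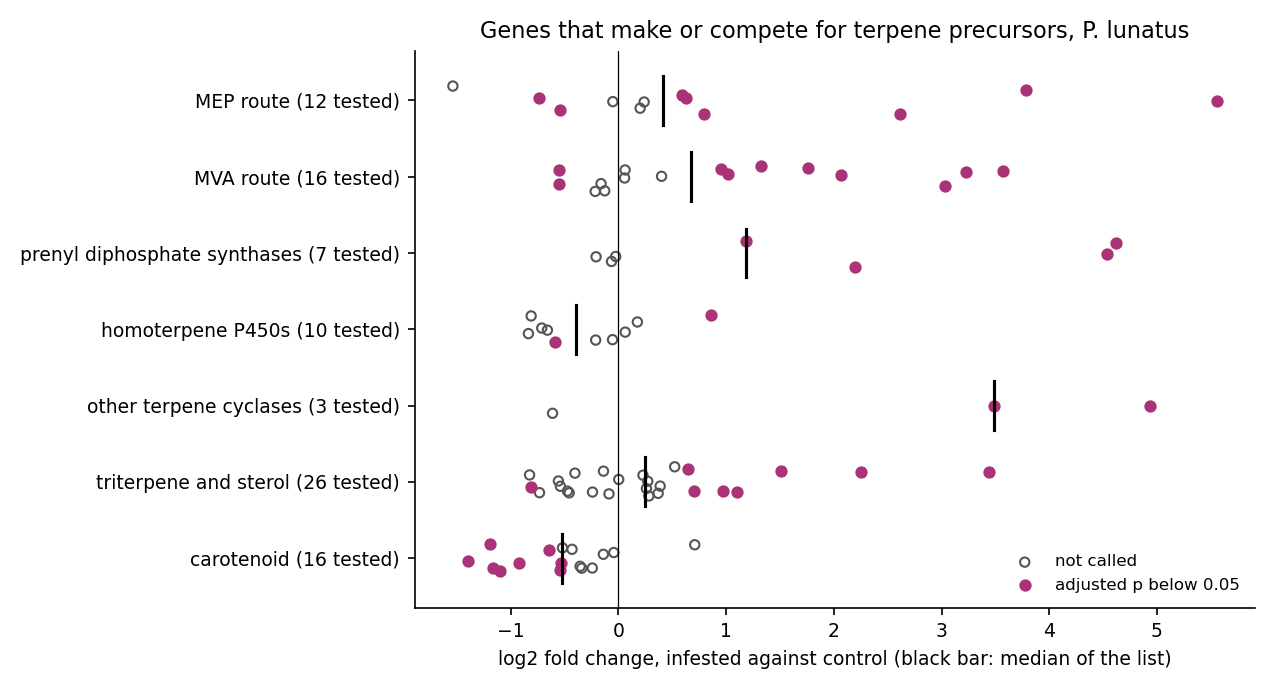
Log2 fold change of infested against control for each tested gene of 7 lists, with filled points for genes called at an adjusted p below 0.05, open points for the rest and a black bar at each list's median. The medians run from −0.53 for carotenoid genes to 3.49 for terpene cyclases outside the name criterion. The latter list has only 3 tested genes, at −0.61, 3.49 and 4.93, so its median is the value of the tricyclene synthase.

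The series also holds 6 libraries of common bean (Phaseolus vulgaris). None of the 29324 genes in that table carried a matching term in its description, gene name or transcription factor family (0 genes). The enzyme family was thus not analysed there. The absence is one of annotation text and does not show that common bean lacks such genes.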

How the data were processed

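The authors deposited 1 table of raw counts for each species, with a row per gene. HISAT2, featureCounts and DESeq2 are named, per the submitters' processing notes, without version or settings; no label or file header used here names the genome build or the strand setting. Coordinates are those of the deposited table. The members and lists were chosen with earlier results of these data known.

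The 6 lima bean libraries were fitted with edgeR (4.0.16, R 4.3.3): filterByExpr, TMM scaling, a quasi-likelihood test between the groups, and p-values adjusted after Benjamini and Hochberg across 18523 genes, with calls below 0.05. Standard errors were derived from each fold change and the square root of its F. CPM uses TMM-scaled library sizes, and log2 CPM a prior count of 2. CPM per kb divides by the authors' gene length in bases. DESeq2 (1.42.0) served as an alternative. No pair of libraries of a group looked like a copy (chi-square per degree of freedom of at least 10.5).

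All members are named, with the 3 genes of a matching name that had the highest sums below the criterion, up to 3 called genes per list with the smallest p, and 5 genes nearest in pattern with a product name and an average log2 CPM of at least 1. No sequence table of lima bean was used here.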

Additional observations from a re-analysis of the deposited data

How the results depend on the processing

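As a description, all 9 members were called higher and 0 lower under each of 12 alternatives: median-ratio, upper-quartile and library-total scaling, no filter on low counts, DESeq2, replicate number as a block, and each of the 6 lima bean libraries left out. For the 3 members with a test, Pl06G0000316900.v1, Pl11G0000312300.v1 and Pl11G0000312400.v1, the lowest log2 fold change over these was 2.46 and the highest adjusted p 0.0039. A criterion of 500 counts gave 10 genes, all called higher, and 2000 counts gave 7 of 7. Searching the whole description, domain names included, gave 11 of 11, an alternative chosen after seeing the data. Each of these criteria sums over the infested libraries too, so the counts are a description, where 9.65% of all genes tested were called higher. Over the table, 1617 genes were called with the replicate block, and 1317 to 3204 with 1 library left out. Pathway genes called lower fell from 14 to 7 with the block and ranged from 4 to 13 with 1 library left out; with the block, falls numbered 0 in the MEP list, 1 in the mevalonate list, 0 among the P450s, where the call of Pl09G0000037700.v1 ended (adjusted p = 0.0542), and 5 in the carotenoid list. Pathway genes called higher stayed within 1.5 times of 28. Same-numbered libraries did not deviate together (correlations of −0.22, 0.05 and −0.18). The largest correlation of any control with any infested library was 0.36, for control library 3 with infested library 1. These values show no pairing by number, but with 3 libraries per group they cannot settle it. Of 168 list counts under the alternatives, 25 moved by more than 1.5 times, 22 of them counts of falls. The cause was not tested. The planned common bean results were not run, since no gene there carried a matching name. Depth limits the genes under the filter, 6 of the 8 matching names with some counts below the criterion.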
